A study of Mus musculus with 69 samples.

Results

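The circadian clock genes of the mouse lung were described here through 10 genes, namely Arntl (also called Bmal1), Npas2, Per1, Per2, Per3, Ciart, Nr1d1, Nr1d2, Dbp and Tef. They were chosen by name and were matched through the transcript identifier of each array probe, which gave 15 probes, and probes of 1 gene were summarised by their median. All 10 passed the filter on dim probes and were among the 17628 genes tested, out of 18749 genes named on the array. Lungs came from 69 female C57BL/6 mice, which were 5-7 weeks old on arrival and were acclimatised for 1-3 weeks under a 12 h light cycle. Each mouse received 1 intratracheal instillation of titanium dioxide (TiO2) nanoparticles or of the vehicle. NRCWE-001 had no surface modification, whereas the surface of NRCWE-002 was positively charged, and each was given at 18, 54 or 162 µg. Lungs were collected 24 h (day 1) or 28 days (day 28) after exposure, which made 14 groups. Every exposed group held 5 mice, the vehicle group of day 1 held 5 and that of day 28 held 4. The vehicle is labelled H2O in the sample titles and is given as 2% serum in water in the design text. The RNA came from a frozen section of lung and was hybridised, 1 mouse per array, in Cy5 against a commercial universal mouse reference RNA in Cy3, with no dye swap. The hour of the day at which each lung was taken is not given in the sources used here, and its part in any difference below was not tested.

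The circadian clock is a transcriptional feedback loop that runs in nearly every cell, the cells of the lung included. ARNTL pairs with CLOCK or NPAS2 and activates genes through E-box sequences, among them the period genes (Per1 to Per3) and Ciart, whose products repress that same activation. The nuclear receptors NR1D1 and NR1D2 (REV-ERB alpha and beta) repress Arntl and Npas2, while DBP and TEF are output transcription factors that bind D-box sequences. In tissues with a running clock, Arntl and Npas2 are therefore high at the time of day when Dbp, Tef, Nr1d1 and the period genes are low, and the reverse.

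Promoter sequences of 9 of the 10 genes were found in the RefSeq table (build GRCm38.p6), as windows of 250 bases before to 50 bases after the start site. The table held no window for Per2. The 4 windows printed here, 5′ to 3′ on the strand of the gene, are the 3 with the most matches to letters that factors of the loop bind, and that of Arntl, the gene that the REV-ERB receptors repress. Per1 and Arntl had 2 windows each, and the one with matches is shown. Capitals mark the E-box (CACGTG), the D-box (TTATGTAA or TTACGTAA) and the AGGTCA half-site, which is the core of the element that NR1D1 and NR1D2 bind. A match on the other strand appears as its reverse complement, so AGGTCA is printed as TGACCT in Per1. Ciart (chr3:95882179-95882478, minus strand) held 3 E-boxes, at -116, -58 and -44 bases from the start. Per1 (chr11:69098699-69098998, plus strand) held an E-box at -166 and an AGGTCA half-site at -137. Per3 (chr4:151044616-151044915, minus strand) held 2 D-boxes, at -205 and -158. Arntl (chr7:113207261-113207560, plus strand) held an AGGTCA half-site 31 bases after the start.
Ciart: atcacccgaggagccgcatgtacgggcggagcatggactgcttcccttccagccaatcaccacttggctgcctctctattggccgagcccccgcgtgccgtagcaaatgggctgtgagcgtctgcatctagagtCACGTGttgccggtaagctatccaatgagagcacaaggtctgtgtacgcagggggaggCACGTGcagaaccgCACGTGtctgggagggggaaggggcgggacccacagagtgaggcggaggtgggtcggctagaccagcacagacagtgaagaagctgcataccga
Per1: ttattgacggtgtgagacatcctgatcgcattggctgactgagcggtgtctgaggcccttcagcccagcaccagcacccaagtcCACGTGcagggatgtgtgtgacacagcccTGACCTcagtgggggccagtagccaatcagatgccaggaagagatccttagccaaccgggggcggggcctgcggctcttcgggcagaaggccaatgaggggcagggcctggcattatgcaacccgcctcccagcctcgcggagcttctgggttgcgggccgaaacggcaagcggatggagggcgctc
Per3: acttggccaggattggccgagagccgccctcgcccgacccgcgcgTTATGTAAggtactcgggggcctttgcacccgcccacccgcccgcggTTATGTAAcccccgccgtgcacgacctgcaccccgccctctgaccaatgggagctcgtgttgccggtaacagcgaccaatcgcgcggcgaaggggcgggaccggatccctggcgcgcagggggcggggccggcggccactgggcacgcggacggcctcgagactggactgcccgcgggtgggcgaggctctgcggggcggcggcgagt
Arntl: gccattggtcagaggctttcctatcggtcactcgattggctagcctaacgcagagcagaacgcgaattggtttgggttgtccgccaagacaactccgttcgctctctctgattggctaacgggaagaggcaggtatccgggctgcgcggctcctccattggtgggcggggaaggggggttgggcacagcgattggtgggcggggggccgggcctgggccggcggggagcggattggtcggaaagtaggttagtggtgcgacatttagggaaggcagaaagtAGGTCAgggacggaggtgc

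Such letters are common, and they describe the windows only. Among 32851 mouse promoter windows of this length, searched on both strands, 7.15% held an E-box, and 3 of the 9 members did (Per1, Tef and Ciart). The AGGTCA half-site stood in 16.3% of the windows and in 3 of the 9 members (Per1, Nr1d2 and Arntl). The related E-prime box (CACGTT) was found in 4.68% of the windows and, of the members, in Nr1d1. A D-box was found in 1.06% of the windows and, of the members, in Per3. Windows with 3 or more E-boxes, as in Ciart, numbered 29 of the 32851 (0.0883%), and those with 2 or more D-boxes, as in Per3, numbered 8 (0.0244%). The windows of Dbp and Npas2 held none of these letters.

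The deposited value of each spot was the log2 ratio of lung to reference RNA, so a level is relative to the reference and is compared between groups within a gene but not between genes. As a check of the tissue, the mean log2 ratio of 5 lung epithelial markers (Sftpc, Sftpb, Sftpa1, Scgb1a1, Foxj1) had group medians between 5.18 and 5.64, and that of 3 endothelial markers (Pecam1, Cldn5, Cdh5) between 4.78 and 5.12. Between 60.8% and 87.6% of the probes of an array were well above background in the lung channel, and no spot was saturated. The probes of 9 members were well above background on all 69 arrays, whereas that of Npas2 was so on 32 arrays, with a median intensity over background of 16.5. Npas2 was therefore measured near the detection limit. In RNA of a whole lung section, fewer cells of a type and less RNA per cell cannot be told apart.

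Levels of the clock genes differed between animals by unequal amounts. Dbp, the output factor that typically swings widely over the day, ranged from -0.57 to 2.40 over the 69 animals, a 7.85-fold range. The range was 6.27-fold for Per1, 5.15-fold for Nr1d2, 5.08-fold for Ciart and 4.58-fold for Arntl. It was 2.73-fold for Per2, 2.42-fold for Per3, 1.90-fold for Tef, 1.57-fold for Nr1d1 and 1.49-fold for Npas2. Levels of Per2, Tef and Nr1d1 are medians over a brighter probe and dimmer ones, whereas the other members had a single probe. The part of the probes in the order of these ranges was not tested. Animals of the same group also differed widely in several members. The standard deviation within groups was 0.46 log2 units for Per1, 0.44 for Dbp, 0.41 for Arntl and 0.37 for Nr1d2, against a median of 0.18 over all genes tested. These 4 values lay above the 91st percentile of all genes, and that of Dbp at the 95.4th percentile.

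**Figure D1:**
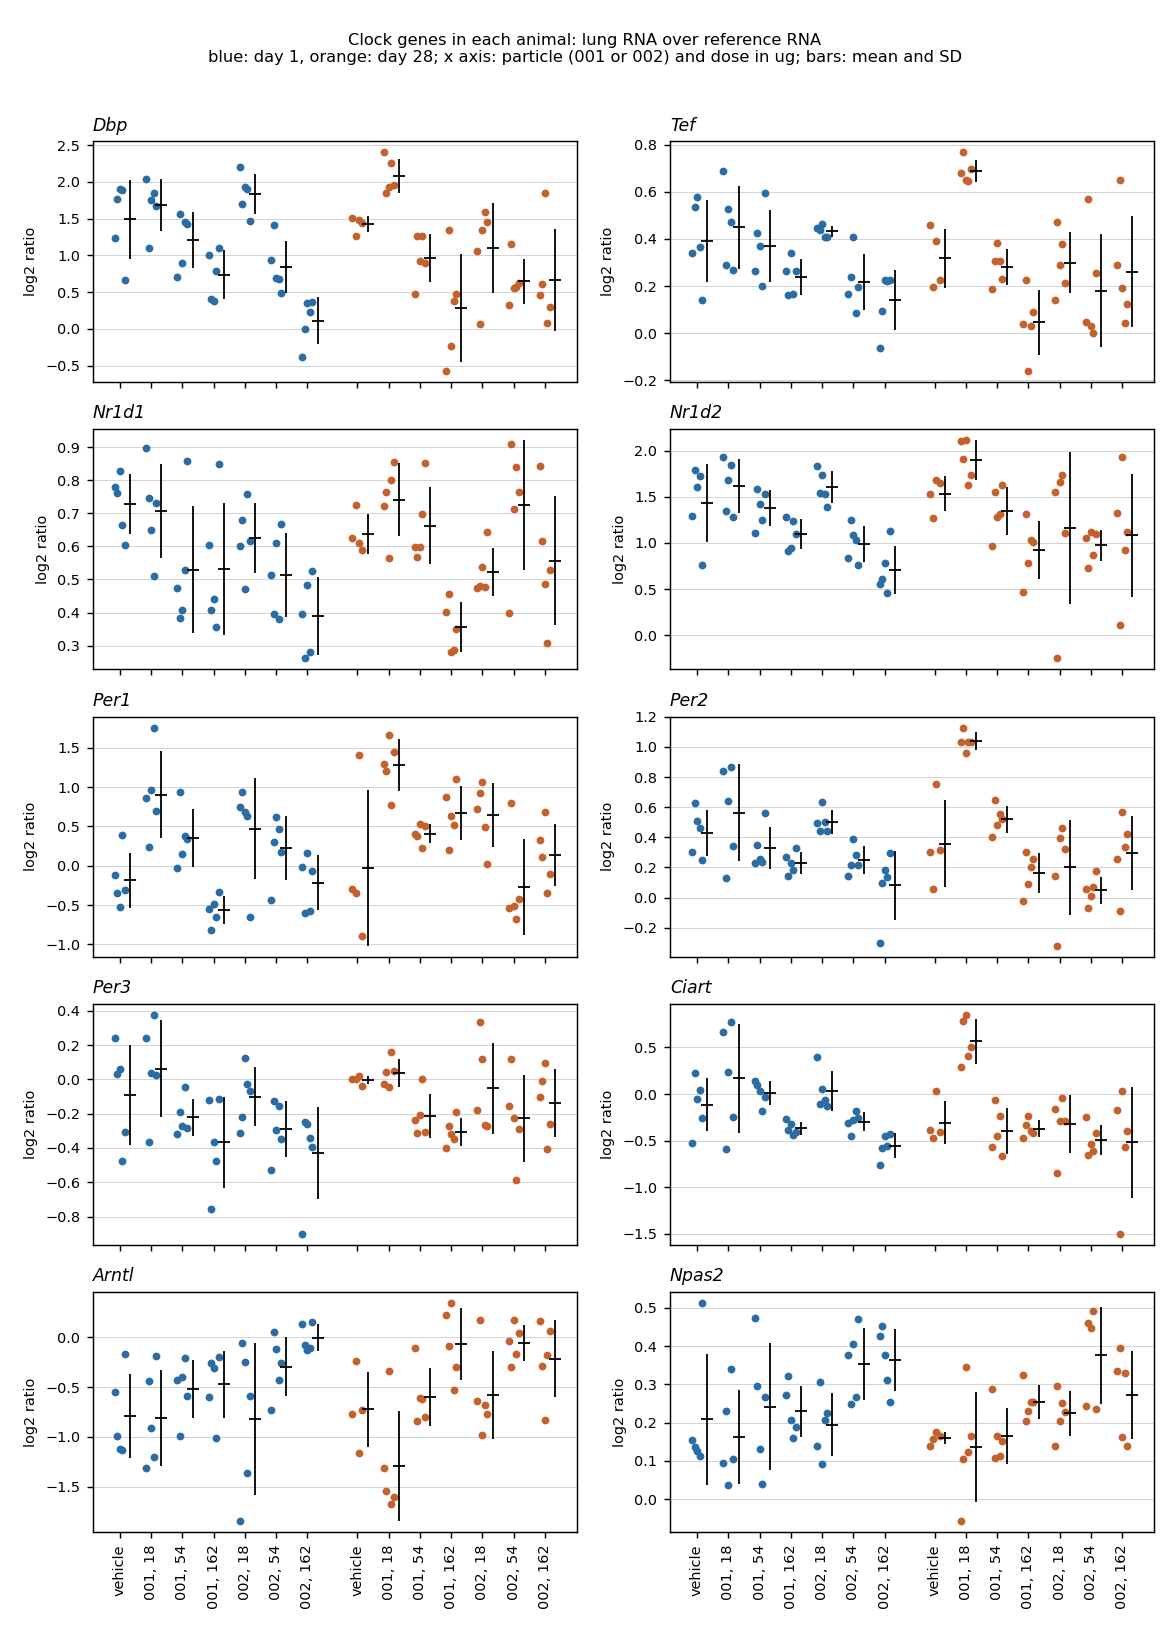
Log2 ratio of lung to reference RNA for the 10 clock genes, 1 panel per gene, with the vehicle group and the doses of both particles in µg on the horizontal axis. Each dot is 1 mouse, horizontal bars are group means and vertical bars ± 1 SD, with day 1 in blue and day 28 in orange. Dbp stands lower and Arntl higher at 162 µg than at 18 µg of NRCWE-001 on day 28 and of NRCWE-002 on day 1.

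Over the 14 groups, 8 of the 10 members differed at an adjusted p below 0.05 in the moderated F-test of limma, where 7.13% of all genes were called. Per2 had an adjusted p of 6.75e-07 and ranked 15th of the 17628 genes, and Dbp an adjusted p of 7.36e-07 and rank 18. The other called members were Per1 (9.49e-05), Ciart (0.000137), Tef (0.000205), Nr1d2 (0.00356), Arntl (0.00396) and Nr1d1 (0.00663). Per3 (adjusted p = 0.0602) and Npas2 (0.0961) were not called. Vehicle and the 3 doses of a particle were also compared within a day by F-test. For NRCWE-001 on day 28, 6 members were called (0.686% of all genes). Among them, the call of Nr1d1 (F-test adjusted p = 0.0479) was lost in 42 of the 69 fits that left out 1 animal. That of Arntl was lost in 7 of these fits, and both were lost with arrays centred on their median. On day 1, 1 member each was called, Per1 for NRCWE-001 (0.879%) and Dbp for NRCWE-002 (0.771%). For NRCWE-002 on day 28, 0 members and 0% of all genes were called in limma, with 4 members at an unadjusted p below 0.05.

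Vehicle animals of both days showed similar levels of the clock genes. Dbp was 1.24, 1.76, 1.90, 1.89 and 0.66 in the 5 vehicle animals of day 1 and 1.51, 1.26, 1.48 and 1.44 in the 4 of day 28. Arntl was -0.55, -0.99, -1.12, -1.14 and -0.17 on day 1 and -0.77, -0.24, -1.16 and -0.73 on day 28. The 2 days overlapped for all 10 members (3.36% of all genes did not overlap), and in each vehicle group the animal with the highest Arntl was the one with the lowest Dbp. In limma, 0 of 10 members and 0% of all genes were called, and at an unadjusted p below 0.05 the counts were 0 members and 889 genes. The differences, day 28 minus day 1, ran from -0.19 for Ciart to 0.16 for Per1. For Dbp the difference was -0.07 with a 95% interval of -0.64 to 0.51, and for Arntl 0.07 (-0.47 to 0.61), so that differences of up to about 0.6 log2 units in either direction could not be resolved. No slide held vehicle animals of both days, so the days of vehicle were not compared within a slide.

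On day 28 after NRCWE-001, 7 of the 10 members differed between 162 and 18 µg, against 1.34% of all genes called. Arntl was the 1 member higher at the high dose (0.845% of all genes), and the 6 members Per2, Ciart, Nr1d1, Nr1d2, Dbp and Tef were lower (0.494% of all genes). The median difference over the 10 members was -0.63 log2 units, against -0.00 over all genes. These contrasts between the highest and the lowest dose were added after the group means had been seen, and they do not use the vehicle animals.

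On the activating side of the loop, Arntl was -1.31, -1.55, -0.34, -1.67 and -1.61 in the animals given 18 µg NRCWE-001, and 0.22, -0.08, 0.35, -0.53 and -0.30 in those given 162 µg. It was -0.11, -0.84, -0.61, -0.62 and -0.80 at 54 µg. The third animal of the low dose stood apart from the other 4 and lay among the high-dose animals, so the groups overlapped through it. The difference was 1.23 ± 0.25 (SE), a 2.34-fold higher ratio (95% interval 0.72 to 1.73 log2 units; adjusted p = 0.00502, limma). Npas2, the partner that can replace CLOCK, differed by 0.12 and was not called (adjusted p = 0.71).

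Among the repressors, Per2 was 1.03, 1.13, 0.96, 1.03 and 1.03 at 18 µg, 0.40, 0.65, 0.48, 0.55 and 0.52 at 54 µg, and -0.02, 0.30, 0.09, 0.20 and 0.25 at 162 µg. The 3 dose groups did not overlap, and the mean fell with each step from 1.04 ± 0.06 (SD) through 0.52 ± 0.09 to 0.16 ± 0.13. Per2 fell by 0.87 ± 0.12 from the lowest to the highest dose, a 1.83-fold lower ratio (adjusted p = 4.29e-06, limma). Ciart, a repressor of the ARNTL complex, was 0.29, 0.78, 0.85, 0.40 and 0.50 at 18 µg and -0.47, -0.34, -0.24, -0.39 and -0.41 at 162 µg. All animals of the low dose lay above all of the high dose, with a difference of -0.94 ± 0.18 (adjusted p = 0.00232, limma), and the 54 µg animals (-0.66 to -0.06) lay below those of the low dose. Per1 (-0.61, adjusted p = 0.467) and Per3 (-0.34, adjusted p = 0.232) were not called, although the Per3 values of both doses did not overlap.

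Both REV-ERB genes were lower at 162 µg. Nr1d2 was 2.11, 1.91, 2.11, 1.62 and 1.74 at 18 µg and 0.47, 1.31, 0.78, 1.03 and 1.01 at 162 µg, a difference of -0.98 ± 0.23 (adjusted p = 0.0149, limma). Nr1d1 was 0.72, 0.77, 0.56, 0.80 and 0.86 at 18 µg and 0.40, 0.46, 0.28, 0.29 and 0.35 at 162 µg, a difference of -0.39 ± 0.09 (adjusted p = 0.0137, limma). Neither gene had an overlap between these doses. The call was lost for Nr1d2 without the first animal of the 162 µg group (adjusted p = 0.0573) or of the 18 µg group (0.0522), and for Nr1d1 without the fourth animal of the 162 µg group (0.0598).

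The output factors showed the same direction. Dbp was 2.40, 1.84, 1.94, 2.25 and 1.96 at 18 µg, 0.47, 1.26, 0.93, 1.26 and 0.90 at 54 µg, and -0.57, 1.34, -0.23, 0.38 and 0.48 at 162 µg. Every low-dose animal exceeded every animal of both higher doses, which overlapped each other. Dbp fell by 1.80 ± 0.27 from 18 to 162 µg, a 3.48-fold lower ratio (95% interval -2.34 to -1.26; adjusted p = 2.78e-05, limma). Tef, a close relative of Dbp, was 0.68, 0.77, 0.65, 0.65 and 0.70 at 18 µg and 0.04, 0.23, -0.16, 0.03 and 0.09 at 162 µg. The groups were well apart, with a difference of -0.64 ± 0.09 (adjusted p = 1.31e-05, limma). In all, 7 members lay wholly lower at 162 µg, against 1.82% of all genes without overlap in either direction. On the 3 slides that held both doses, the difference within the slide was -2.97 to -0.59 for Dbp, 0.26 to 1.53 for Arntl and -1.06 to -0.66 for Per2.

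The size of a fall depended on the probe. For Tef in this comparison the brightest of 3 probes gave -1.35 and the 2 dimmer probes -0.69 and -0.46. For Nr1d1 the brightest probe gave -1.04 and the 2 dimmer probes -0.43 and -0.12, and for Per2 the brighter of 2 probes gave -1.42 and the dimmer -0.33. Probes of a gene shared the direction in this comparison, and the medians given above are smaller in size than the value of the brightest probe.

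**Figure D2:**
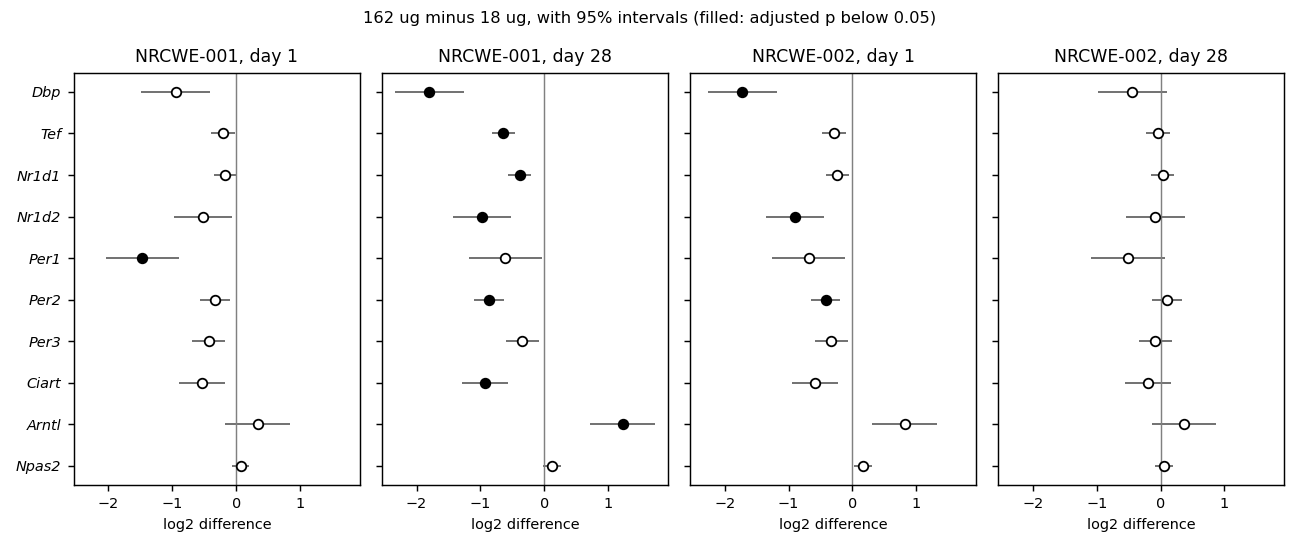
Difference in log2 ratio between 162 and 18 µg for the 10 clock genes, in 1 panel for each particle and day. Points are the fitted differences, lines their 95% intervals, and filled points passed an adjusted p of 0.05. Of the 10 points of a panel, 7 (NRCWE-001, day 28), 3 (NRCWE-002, day 1), 1 (NRCWE-001, day 1) and 0 (NRCWE-002, day 28) are filled.

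One day after NRCWE-002, Dbp, Nr1d2 and Per2 were lower at 162 than at 18 µg, which made 3 of 10 members called against 1.4% of all genes (0.38% lower). Dbp was 2.20, 1.69, 1.93, 1.90 and 1.47 at 18 µg, 0.93, 1.42, 0.69, 0.68 and 0.49 at 54 µg, and -0.39, 0.00, 0.35, 0.23 and 0.37 at 162 µg. The 3 dose groups did not overlap, and Dbp fell by 1.73 ± 0.27 (95% interval -2.27 to -1.19), a 3.31-fold lower ratio (adjusted p = 0.000274, limma). Nr1d2 was 1.83, 1.54, 1.73, 1.53 and 1.39 at 18 µg and 0.55, 0.61, 0.78, 0.46 and 1.13 at 162 µg, with no overlap and a difference of -0.90 ± 0.23 (adjusted p = 0.0280, limma). Per2 differed by -0.42 ± 0.12, from 0.44-0.64 at 18 µg to -0.30-0.30 at 162 µg. Its adjusted p of 0.0479 stood at the threshold, and the call was lost in 33 of the 69 fits that left out 1 animal, while that of Nr1d2 was lost in 8.

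Arntl on that day was -1.85, -0.06, -0.25, -1.37 and -0.59 at 18 µg NRCWE-002 and 0.13, -0.08, -0.12, -0.10 and 0.15 at 162 µg. The low-dose animals were spread widely and reached up to the high-dose range, and the difference of 0.82 ± 0.25 was not called (adjusted p = 0.0804, limma). Ciart (-0.58, adjusted p = 0.0798) and Tef (-0.29, adjusted p = 0.0917) were not called either, although neither gene had an overlap between these doses. In all, 5 of 10 members lay wholly lower at 162 µg (Per2, Ciart, Nr1d2, Dbp and Tef), against 5.86% of all genes without overlap. On the 2 slides that held both doses, Dbp differed by -2.58 and -1.12 and Arntl by 1.98 and 0.46. With the slide as a fixed block, 5 members were called, Arntl (adjusted p = 0.0104) and Ciart in addition, where 2.54% of all genes were. Arntl was also called with the slide as a random block, the scan day as a block, normexp with loess, or median centring. In return, median centring lost the calls of Nr1d2 and Per2, and normexp with loess lost that of Per2.

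One day after NRCWE-001, Per1 was the member called between 162 and 18 µg, against 1.13% of all genes (0.346% lower). Per1, which besides its place in the loop is induced quickly by many stimuli, was 0.86, 0.24, 0.96, 1.76 and 0.70 at 18 µg, -0.03, 0.94, 0.15, 0.37 and 0.34 at 54 µg, and -0.55, -0.82, -0.49, -0.65 and -0.34 at 162 µg. The high-dose animals lay below all animals of both lower doses, and Per1 fell by 1.47 ± 0.29 from 18 to 162 µg, a 2.77-fold lower ratio (adjusted p = 0.00301, limma). It was also the member without overlap (2.93% of all genes). Dbp was 2.04, 1.1, 1.75, 1.85 and 1.67 at 18 µg and 1.00, 0.41, 0.37, 0.79 and 1.1 at 162 µg, with the second low-dose animal at the level of the highest high-dose animal. The Dbp difference of -0.95 ± 0.27 was not called (adjusted p = 0.0625, limma) but was called in 6 of the 69 fits that left out 1 animal, among them the fit without that low-dose animal (adjusted p = 0.0385), in which 5 members were called. With the slide as a fixed block, 6 members were called (Per1, Per2, Per3, Ciart, Dbp and Tef) where 8.22% of all genes were, and on the 4 slides with both doses Dbp differed by -1.38 to -0.69 and Arntl by 0.18 to 0.72.

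On day 28 after NRCWE-002, 0 of 10 members were called between 162 and 18 µg in limma, and so were 0% of all genes. At an unadjusted p below 0.05 the counts were 0 members and 401 genes. Dbp was 1.06, 0.07, 1.35, 1.58 and 1.46 at 18 µg, 0.33, 1.15, 0.56, 0.58 and 0.62 at 54 µg, and 0.45, 0.61, 1.85, 0.09 and 0.30 at 162 µg. The second low-dose animal lay below every high-dose animal and the third high-dose animal above every low-dose animal, and in the former Nr1d2 was also low (-0.25, against 1.11-1.73 in the other 4). The Dbp difference was -0.44 with a 95% interval of -0.98 to 0.10, and it was -0.70 without the former animal and -0.74 without the latter. The Arntl difference was 0.37 (-0.14 to 0.87), that of Per2 0.10 (-0.14 to 0.33) and that of Tef -0.04 (-0.22 to 0.15). Without the second low-dose animal, the Arntl difference was 0.55, that of Per2 turned to -0.033 and that of Tef to 0.0049, so that neither of the latter 2 had a stable sign.

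The particles were compared by testing the difference between their dose contrasts. On day 28, Per2 and Tef differed between NRCWE-002 and NRCWE-001 in their change from 18 to 162 µg, 2 of 10 members against 0.0511% of all genes (0.0397% more positive). The difference was 0.97 ± 0.17 for Per2 (95% interval 0.64 to 1.30; adjusted p = 0.00198, limma) and 0.60 ± 0.13 for Tef (adjusted p = 0.0434). The call of Tef was lost in 34 of the 69 fits that left out 1 animal. For Dbp the difference was 1.36 ± 0.38 (adjusted p = 0.347). On day 1, 0 members and 0% of genes differed in this way, with 1 member and 682 genes at an unadjusted p below 0.05. Between day 28 and day 1, the dose contrast of NRCWE-001 differed in 0 members (0.244% of all genes, 5 members unadjusted), and that of NRCWE-002 in 0 members (0.0454% of all genes, 4 members unadjusted).

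Each dose was also compared with the vehicle of its day. The contrasts of 1 day share their vehicle animals and are given side by side for that reason. For Dbp on day 28, the difference from vehicle was 0.66 at 18 µg, -0.46 at 54 µg and -1.14 at 162 µg NRCWE-001. On day 1 it was 0.35, -0.65 and -1.38 at the rising doses of NRCWE-002, and 0.19, -0.28 and -0.76 at those of NRCWE-001. For NRCWE-002 on day 28 it was -0.32, -0.77 and -0.76. Of these 12 differences in Dbp, that of 162 µg NRCWE-002 on day 1 was called.

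The group given 18 µg NRCWE-001 stood above vehicle on day 28 in 3 members, against 0.193% of all genes called (0.136% higher). Per2 was higher by 0.68 ± 0.12 (adjusted p = 0.00271, limma), with all 5 animals (0.96-1.13) above the 4 vehicle animals at 0.30, 0.06, 0.75 and 0.32. Ciart was higher by 0.87 ± 0.19 (adjusted p = 0.0248), with vehicle animals at -0.39, -0.47, 0.04 and -0.41 and no overlap. Per1 was 1.30, 1.20, 1.67, 0.78 and 1.45 in the exposed animals and -0.29, -0.34, 1.41 and -0.89 in the vehicle animals, and was higher by 1.31 ± 0.30 (adjusted p = 0.0409, limma). The third vehicle animal lay within the exposed range of Per1. The call of Per1 was lost in 7 and that of Ciart in 5 of the 69 fits that left out 1 animal, both without the first, the second or the fourth vehicle animal (adjusted p of 0.115 to 0.378). That of Per1 was also lost with the slide as a fixed block, with signals processed by the scanner software and with arrays centred on their median. That of Ciart was lost with scanner intensities taken through normexp and loess. Dbp and Tef did not overlap with vehicle either, which made 4 members wholly above it against 2.71% of all genes, but were not called (adjusted p = 0.639 and 0.110).

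One day after 162 µg NRCWE-002, Dbp was below vehicle, 1 of 10 members against 0.59% of all genes (0.153% lower). The difference was -1.38 ± 0.27 (95% interval -1.92 to -0.84), a 2.60-fold lower ratio (adjusted p = 0.00502, limma). The animals at 162 µg (-0.39 to 0.37) lay below all vehicle animals (0.66 to 1.90). With arrays centred on their median in place of loess, Dbp was no longer called (-1.07, adjusted p = 0.0595, limma). Nr1d1 also lay wholly below vehicle (-0.34, adjusted p = 0.0501) and Arntl wholly above it (0.79, adjusted p = 0.158), which made 3 members without overlap against 4.77% of all genes. Nr1d1 was called when the slide was a fixed block (-0.36, adjusted p = 0.0359, limma; 1.96% of all genes called), the scan day a fixed block (3.99%) or the slide a random block (2.84%), and the random block also called Per2, Nr1d2 and Arntl. A stricter filter on dim probes, without a block, called Nr1d1 as well (-0.34, adjusted p = 0.0478, limma). In the other 10 contrasts of a single dose with vehicle, 0 members were called, with 0 to 7 members at an unadjusted p below 0.05. The highest of these counts was at 162 µg NRCWE-001 on day 28. At 162 µg NRCWE-001 on day 1, Per3 was called with the slide as a fixed block (-0.40, adjusted p = 0.0176, limma; 4.11% of all genes called) or a random block (3.51%), and the difference from vehicle was -0.79 to -0.36 on the 3 slides that held both groups. The share of all genes called was 0.624% at 162 µg NRCWE-001 on day 1, 0.113% at 54 µg NRCWE-002 on day 1, 0.0511% at 162 µg NRCWE-001 on day 28 and 0% to 0.00567% in the other 7.

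The doses of a particle were also averaged. The mean of the 3 doses differed from vehicle in 0 members for both particles on both days, where 0.0624% of all genes were called for NRCWE-002 on day 1, 0.017% for NRCWE-001 on day 28 and 0% otherwise, and 0 to 3 members had an unadjusted p below 0.05. Between the particles on day 28, Per1 (-0.62 ± 0.17, adjusted p = 0.0185), Per2 (-0.39 ± 0.07, adjusted p = 0.000498) and Ciart (-0.38 ± 0.10, adjusted p = 0.0209) were lower after NRCWE-002 in limma, 3 of 10 members against 6.73% of all genes (4.67% lower). None of these 3 calls remained with the slide as a fixed block. On day 1, 0 members differed between the particles (0.108% of all genes, 2 members unadjusted), and the particle difference changed between the days in 0 members (4.21% of all genes, 2 members unadjusted). Between the days, Per1 was higher on day 28 than on day 1 after NRCWE-001 (0.56 ± 0.17, adjusted p = 0.0386), 1 of 10 members against 4.15% of all genes (1.5% higher), and this call was lost with the slide as a fixed or random block. After NRCWE-002, 0 members changed between the days, where 10.3% of all genes did, and 0 members were below an unadjusted p of 0.05. The day change did not differ from that of vehicle in any member for either particle (0% of all genes, 0 members unadjusted).

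Animals of the same group also differed among themselves in a joint manner. After the group means had been removed, 17 of the 45 pairs of members were correlated by Pearson r over the 69 animals. The 2-sided permutation test shuffled animals within groups, with adjustment over the 45 pairs, and 10 pairs were positive and 7 negative. Of the negative pairs, 4 joined Arntl to Dbp, Nr1d2, Per2 and Ciart, and 3 joined Npas2 to Dbp, Nr1d2 and Per2. Dbp and Arntl had r = -0.54 and rho = -0.56 (permutation adjusted p = 0.00015), and r was -0.53 without the 2 animals farthest in Dbp. Dbp and Nr1d2 had r = 0.68 and rho = 0.62 (permutation adjusted p = 9e-05, the smallest the shuffles can give), and r was 0.67 without the 2 farthest animals. The strongest pairs were Per2 with Nr1d2 (r = 0.75, rho = 0.67) and Per2 with Ciart (r = 0.75, rho = 0.63), both at the same smallest adjusted p. The pair of Per1 and Dbp did not pass the test (r = 0.19, rho = 0.20, permutation adjusted p = 0.183). Taken day by day, the 17 pairs had the same sign on both days, with Dbp and Arntl at -0.47 on day 1 and -0.61 on day 28. Several pairs that did not pass by Pearson r changed sign. Per2 with Tef was 0.80 on day 1 and -0.21 on day 28, and Tef with Nr1d2 was 0.67 and -0.32. By rank over both days, Per2 with Tef did pass (rho = 0.42, permutation adjusted p = 0.00829). Tef with Nr1d2 did not (rho = 0.27, permutation adjusted p = 0.0804). With slide means removed as well, r over both days was 0.76 and 0.65 for these pairs. Differences in r between the days were not tested.

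**Figure D3:**
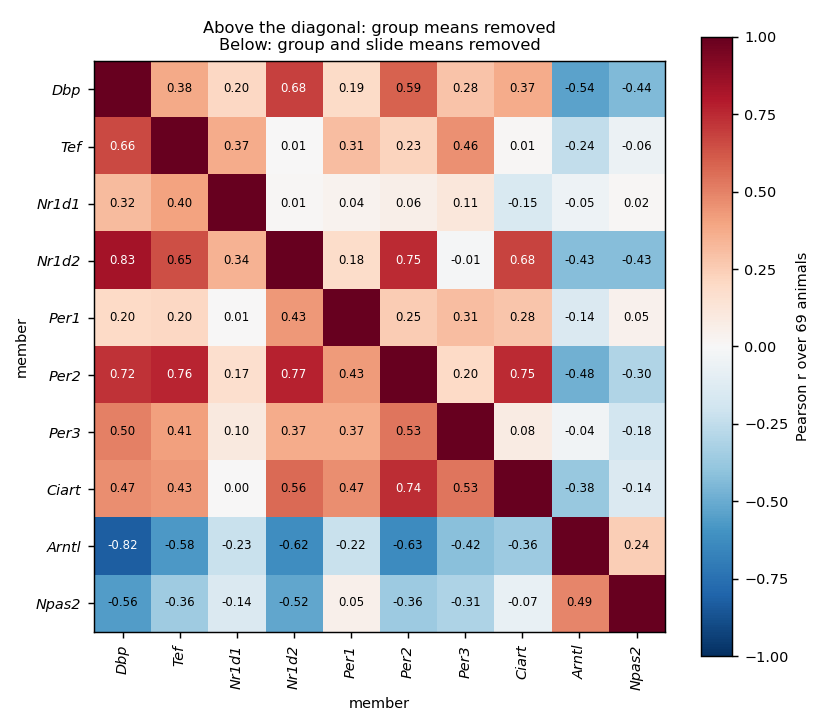
Pearson correlation between the 10 clock genes over 69 animals, with group means removed above the diagonal and group and slide means removed below it. Colour gives r from -1 to 1, and Dbp with Arntl reads -0.54 above and -0.82 below.

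Arrays were hybridised on 18 slides, all of which held more than 1 group, but only 4 of which held both days. With the slide as a random block, the fitted correlation between arrays of a slide was 0.48, and the main fit did not include the slide. When slide means were removed as well, the 17 pairs kept their sign, r of Dbp with Arntl became -0.82 and r of Dbp with Nr1d2 0.83. The share of the spread within groups that lay between slides was 20.5% for Dbp and 20.5% for Per1, against 54.6% for the median gene. These 2 shares were the lowest of the 10 members. Those of the other members ran from 38.3% for Nr1d1 to 53.5% for Nr1d2, nearer to the median gene. Slides held few arrays each, so slide means differ somewhat even without a slide effect. The share to be had in that case was not computed, and a low share is not a measured contribution of the slide.

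**Figure D4:**
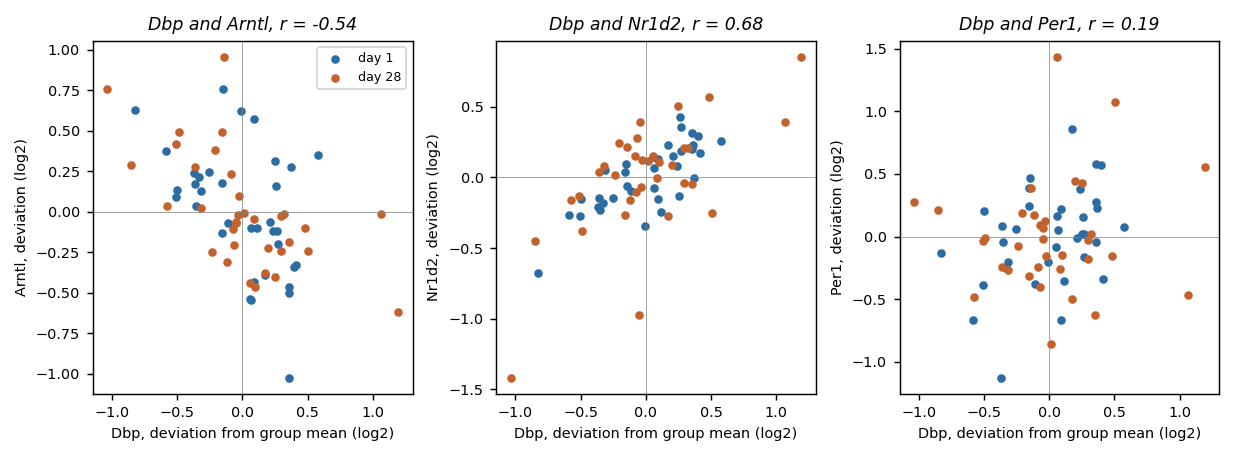
Deviation of each of the 69 animals from its group mean (log2 units) for Dbp on the horizontal axis against Arntl, Nr1d2 and Per1 on the vertical axes. The Arntl cloud falls (r = -0.54), the Nr1d2 cloud rises (r = 0.68) and the Per1 cloud shows little slope (r = 0.19).

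The genes whose deviations were most like those of Dbp were ranked among 17627 genes, of which the median size of r was 0.117. Outside the 10 members, the highest r were those of Hlf (0.76), the third member of the DBP and TEF family, Tspan4 (0.65), Rhebl1 (0.59), Ankrd12 (0.59) and Epop (0.53). The lowest were those of Dtx4 (-0.64), Foxs1 (-0.63), Nfil3 (-0.62), which represses through the same D-box, Adm (-0.60) and Tmem171 (-0.60). Nr1d2 was the 3rd and Per2 the 5th from the top when Dbp itself is counted, and Arntl the 7th from the bottom. These ranks are a description, since all genes share the same arrays.

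Other components of the clock were given by a list of 14 genes, of which 2 were called over the 14 groups, Hlf (adjusted p = 1.54e-05) and Nfil3 (adjusted p = 0.000906), against 7.13% of all genes. Hlf was 2.51, 2.45, 2.39, 2.40 and 2.58 at 18 µg NRCWE-001 on day 28 and 0.46, 1.42, 0.80, 0.80 and 0.57 at 162 µg, a difference of -1.65 ± 0.24 without overlap (adjusted p = 1.31e-05, limma). Nfil3 was higher at 162 µg by 0.82 ± 0.19 (adjusted p = 0.0137). One day after NRCWE-002, Hlf differed by -1.01 (adjusted p = 0.0192) and Nfil3 by 0.71 (adjusted p = 0.0392) between the same doses. The other 12 genes, the partner Clock and the repressors Cry1 and Cry2 among them, were not called in either comparison. Median differences over the list were -0.11 and -0.10 in these comparisons, against -0.00 and -0.01 over all genes.

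A list of 5 genes that are rhythmic in many tissues held 3 called over the 14 groups, against 7.13% of all genes. These were Tspan4 (F-test adjusted p = 3.92e-07), Usp2 (3.41e-05) and Tsc22d3 (0.000238). Tspan4 was 0.61, 0.34, 0.34, 0.31 and 0.16 at 18 µg NRCWE-001 on day 28 and -1.04, -0.49, -1.17, -0.82 and -0.81 at 162 µg, a difference of -1.22 ± 0.13 (adjusted p = 1.92e-08, limma). Usp2, a deubiquitinase, differed by -0.43 in that comparison (adjusted p = 0.0114) and by -0.46 on day 1 (adjusted p = 0.00518). All 3 genes were above vehicle at 18 µg NRCWE-001 on day 28, Tspan4 by 0.74, Usp2 by 0.49 and Tsc22d3 by 1.13. Between 162 and 18 µg the list had a median of -0.43 after NRCWE-001 on day 28 and of -0.24 one day after NRCWE-002.

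Per1 and several rhythmic genes also respond to glucocorticoids and to acute stimuli, and lists of such genes are given beside the members. Of 8 measured glucocorticoid-responsive genes, 4 were called over the 14 groups (Tsc22d3, Mt2, Errfi1 and Klf9), against 7.13% of all genes. Between 162 and 18 µg, 1 of the 8 was called on day 28 after NRCWE-001, against 1.34% of all genes, namely Klf9 at -0.90 (adjusted p = 0.00752, limma). In the other 3 comparisons 0 were called, where the shares of all genes were 0% to 1.4%. The r of the 8 genes to Dbp within groups ran from -0.26 for Mt2 to 0.04 for Dusp1. The median size of r to Dbp over all genes was 0.117. Of 10 immediate early genes, 5 were called over the 14 groups, again against 7.13% of all genes. On day 28 after NRCWE-001, Nr4a1 (1.82, adjusted p = 0.0133) and Atf3 (0.82, adjusted p = 0.0184) were higher at 162 than at 18 µg, and on day 1 Junb was (0.71, adjusted p = 0.0430). The median of the immediate early list was 0.56 in the first of these comparisons and -0.19 for NRCWE-002 on day 1. The r to Dbp within groups ran from -0.31 for Fosb to 0.08 for Nr4a1 in this list. The part of either list in the clock gene values was not tested.

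Markers of other cell types that a lung section could hold varied between the same groups. The mean log2 ratio of 4 cardiac muscle genes had a median of 3.83 (0.73 to 4.27) at 18 µg NRCWE-001 on day 28 and of 0.94 (0.52 to 3.59) at 162 µg, with vehicle at 1.16. After NRCWE-002 on day 1 the order was the opposite, 0.85 (0.60 to 2.39) at 18 µg and 2.36 (1.35 to 3.16) at 162 µg. None of the 4 genes was called in either comparison (1.34% and 1.4% of all genes), and their r to Dbp within groups lay between -0.31 and -0.16. The mean of 4 adipocyte genes likewise was 2.06 against 0.55 and then 0.85 against 1.41, with 0 of 4 called. Of 4 neutrophil genes, 1 was higher at 162 than at 18 µg on day 1 after NRCWE-001, against 1.13% of all genes called (0.789% higher). This was Cxcr2, by 0.84 (adjusted p = 0.00569, limma). The list mean there had medians of 3.03 at 18 µg and 3.84 at 162 µg. These were 3.01 and 3.66 after NRCWE-002 on day 1 and 2.88 and 3.17 after NRCWE-001 on day 28, with 0 of 4 called in both. Of the 2 measured red cell genes and the 3 genes of T and B cells, 0 were called over the 14 groups (7.13% of all genes). The r to Dbp within groups ran from -0.28 (Cxcr2) to 0.01 (S100a8) for the neutrophil genes. It ran from -0.27 (Cd3e) to 0.05 (Ms4a1) for T and B cells and from -0.09 (Adipoq) to -0.03 (Retn) for adipocytes. For the red cell genes it was 0.03 (Alas2) and 0.08 (Hba-a1). The part of these cell types in the clock gene differences was not tested.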

How the data were processed

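Lung RNA of 69 mice was measured on 2-colour Agilent arrays. The authors deposited the median intensity of each spot, obtained with Agilent Feature Extraction. Their deposited table held the log2 ratio of lung (Cy5) to reference (Cy3), normalised by LOWESS within each array, and these values were used. Each column followed the log2 ratios recomputed from its own scanner file (r 0.988 to 0.995), which gave scale and direction. A log10 ratio and signals processed by the scanner software were also deposited by the authors. Of 41174 probes, 27479 (66.7%) were named through their transcript identifier. A probe was kept when well above background on at least 4 arrays, and a gene was the median of its probes.

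The fit was made with limma 3.58.1 in R 4.3.3, with 1 mean per group over all 69 arrays and no covariate. Adjustment was by Benjamini-Hochberg over 17628 genes within each contrast, called below an adjusted p of 0.05. Arrays are separate mice and their number limits the precision. Correlations used 100000 shuffles within groups. The 10 members, the 4 further gene lists and the marker lists were chosen with earlier results of these data known. Named genes were all members, up to 4 called genes per list with the smallest F-test p, and the 5 highest and 5 lowest in r to Dbp. The contrasts of 162 with 18 µg were added after group means had been seen. Alternatives were the scanner intensities (normexp with offset 50 and loess, processed signals, or median centring), other filters, the mean over probes, slide or scan day as a block, and leaving out each array. The fitting was tested on simulated data.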

Additional observations from a re-analysis of the deposited data

Results flagged for a closer look

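Among 140 combinations of a member and a group, 6 held 1 animal far from the others of its group, and chance gives about 1 in 20. Per1 was 0.80 in the second animal given 54 µg NRCWE-002 on day 28, where the other 4 lay between -0.67 and -0.42. Per1 was -0.65 in the fifth animal given 18 µg NRCWE-002 on day 1, against 0.63 to 0.94 in the other 4. Per3 was -0.90 in the first animal given 162 µg NRCWE-002 on day 1, against -0.40 to -0.25. Arntl was -0.34 in the third animal given 18 µg NRCWE-001 on day 28, against -1.67 to -1.31. On the array of that animal 87.1% of probes were well above background, against a median of 67.2% over all arrays. Npas2, measured near the detection limit, was 0.51 in the fifth vehicle animal of day 1, against 0.11 to 0.16. Ciart was 0.0362 in the third vehicle animal of day 28, against -0.47 to -0.39, and Per1 was also highest in that animal of its group.

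In 2 members the dose contrast differed between the particles. On day 28, the change from 18 to 162 µg was more positive after NRCWE-002 than after NRCWE-001 by 0.97 log2 units in Per2 (adjusted p = 0.00198, limma) and by 0.60 in Tef (adjusted p = 0.0434).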

How the results depend on the processing

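Counts of members called over the 14 groups (8) lay between 7 and 10 under every other setting, and those for 162 against 18 µg NRCWE-001 on day 28 (7) between 7 and 8. With the slide as a fixed block, counts became 6 and 5 for 162 against 18 µg on day 1 (NRCWE-001 and NRCWE-002), 4 and 4 for the dose F-test on day 1, 0 between the particles on day 28 and 0 between the days after NRCWE-001. With the slide as a random block these were 6, 6, 6, 5, 1 and 0, with 1 member for the mean of NRCWE-002 doses against vehicle on day 1, 2 for the day difference of the dose contrast of NRCWE-001, and 10 in place of 4 over the 12 single doses against vehicle. With the scan day as a block the first 6 were 5, 6, 2, 5, 0 and 0, and the day difference of the dose contrast 2. Median centring gave 6 between the particles on day 28, 0 between the days after NRCWE-001 and 2 for the single doses. Normexp with loess gave 0 between the days after NRCWE-001. The mean over probes gave 5 for 162 against 18 µg and 2 for the dose F-test of NRCWE-002 on day 1. Processed signals gave 1 in place of 2 for the particle difference in the dose contrast on day 28. Removal of slide means gave 34 correlated pairs in place of 17, but the shuffles did not allow for the slide means removed. That count may therefore be too high. Median centring turned Npas2 to -0.0064 for 162 against 18 µg NRCWE-002 on day 1. The cause of these changes was not tested. With the slide as a fixed block, calls also rose among all genes. In the dose F-test on day 1 after NRCWE-001, Per2 was called at rank 1330 of all genes (adjusted p = 0.0491). The main fit called 155 genes there. After NRCWE-002, Per2 was called at rank 412 (F-test adjusted p = 0.0483), against 136 genes in the main fit. A higher count of members is therefore not by itself particular to the clock genes.

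Without 1 animal, counts ranged from 8 to 9 over the 14 groups, 0 to 2 between the days after NRCWE-001, 2 to 4 between the particles on day 28, 0 to 1 for its change between days and for the mean of NRCWE-001 doses against vehicle on day 28. For 162 against 18 µg they were 1 to 5 and 6 to 7 after NRCWE-001 (day 1, day 28), 1 to 4 after NRCWE-002 on day 1, and 1 to 2 for the particle difference on day 28. The dose F-tests gave 1 to 1, 4 to 8 and 1 to 2, the single doses 2 to 6, and the pairs 12 to 18. The 5 came without the second animal at 18 µg NRCWE-001 on day 1 and 3 without the fifth at 162 µg. The 1 after NRCWE-002 came without any of animals 1 to 4 at 162 µg or of animals 1, 3 and 4 at 18 µg. All counts at 0 not named here kept 0. No paired analysis was possible because sample numbers run through the series and groups share no replicate number, but arrays on a shared slide were compared through the slide block. Precision is limited by 4 or 5 mice per group and, for Npas2, by signal near background.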
